A study of Mus musculus with 40 samples.

Results

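RNA of CT26 tumors from 15 of the 40 mice of the series was compared to ask how blocking TGF-β1 activation from a single source differed from blocking TGF-β itself, when both were given with anti-PD-1. The rule for the members used the treatment labels and no measured value. Of the 15 mice, 5 received anti-GARP:TGFb WT + anti-PD1 FcS (mice 45, 55, 64, 69 and 77), 5 received anti-GARP:TGFb FcD + anti-PD1 FcS (mice 44, 50, 60, 71 and 80), and 5 received anti-TGFb + anti-PD1 FcS (mice 53, 57, 62, 66 and 68). The first 10 mice were pooled and set against the other 5, and they are called the GARP mice and the TGF-β mice here. All 15 mice carried the same CT26 graft and received the same anti-PD-1, so the treatments differed only in the second mAb. CT26 is a mouse colon carcinoma cell line, and 1000000 cells were injected s.c. into syngeneic mice of 6 to 12 weeks. The mAbs were injected i.p. on days 6, 9 and 12, and tumor fragments were collected on day 13. The anti-GARP:TGF-β1 mAb was clone 58A2 as an mIgG2a, either with a wild-type Fc (WT) or with an Fc made unable to engage Fc receptors (FcD). The anti-TGF-β mAb was clone 1D11, which neutralizes all TGF-β isoforms, and the anti-PD-1 had a silent Fc. Isotype control mice received motavizumab.

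TGF-β1 is made as a latent form that binds no receptor until it is activated. GARP, encoded by Lrrc32, holds latent TGF-β1 on the surface of activated regulatory T cells (Tregs), which release the active cytokine with the help of integrins. Many other cells of a tumor, fibroblasts and myeloid cells among them, activate TGF-β without GARP, and active TGF-β signals through its receptors and Smad proteins to induce matrix genes and its own feedback inhibitors. PD-1 is an inhibitory receptor of activated T cells, and TGF-β acts on many cell types besides T cells.

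Between 12156621 and 19691830 reads were counted on genes in each of the 15 tumors (median 14040353). The 20 libraries numbered 41 to 60 held Y-linked transcripts and at most 6 Xist reads, and the 20 libraries numbered 61 to 80 held Xist and at most 1 Y-linked read, so the comparison was also run within each set of libraries. Each set held 5 GARP mice, and libraries 41 to 60 held 2 TGF-β mice (53 and 57) against 3 in libraries 61 to 80. A few tumors stood apart. In mouse 77 (WT), T cell markers summed to 188 CPM (read counts scaled to 1000000 per library), macrophage markers to 2110 CPM and endothelial markers to 376 CPM, the highest sums of the 15 tumors. In mouse 68 (anti-TGF-β), B cell markers summed to 57.0 CPM, and they were at 7.29 CPM or less in each GARP mouse. In mouse 71 (FcD), the epithelial genes Krt8, Krt18 and Epcam, listed as markers of the carcinoma cells, summed to 320 CPM, with a median of 13.8 CPM over the GARP mice and of 18.5 CPM over the TGF-β mice. All 15 tumors carried the CT26 graft, and the values go against that name, since Krt8 had 0 to 5 reads and Epcam 0 to 4 in each of the 7 tumors of libraries 41 to 60, against 58 to 2546 and 21 to 580 in the 8 tumors of libraries 61 to 80. The keratinocyte markers Krt5 and Krt14 had 0 to 2 and 0 to 11 reads in the same 7 tumors, against 7 to 264 and 3 to 117 in the other 8, and like Krt8, Krt18 and Epcam they were highest in mouse 71 and next in mouse 77. None of the 37 markers of 13 cell types passed the test between the groups, and none was at 0 in all 15 tumors. In whole tumors, fewer cells of a type and less RNA per cell cannot be told apart.

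With anti-PD-1, 3824 of 14760 genes tested (25.9%) differed between the GARP and the TGF-β mice at an adjusted p under 0.05 in edgeR's quasi-likelihood test, and such genes are called here. Of these, 1898 (12.9%) were higher and 1926 (13.0%) were lower in the GARP mice. At an unadjusted p under 0.05 the shares were 21.1% higher and 19.3% lower. The differences were small, with a median absolute log2 fold change of 0.393 among called genes, and 214 called genes had an absolute log2 fold change above 1, of which 176 were higher and 38 lower in the GARP mice. Coordinates below are those of GRCm38. All fold changes below are log2 values of the GARP mice over the TGF-β mice from this model, with their standard errors (SE). The 5 mice of a group carry labels of separate mice, and the spread between them is the error of every comparison.

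The count rested on single TGF-β mice. Without mouse 62 no gene was called (0 of those tested, with 4296 at an unadjusted p under 0.05 and a smallest adjusted p of 0.0611). Without mouse 68 1106 genes were called and without mouse 57 2089, whereas 6036 were called without mouse 53. Leaving out 1 of the 10 GARP mice gave 3001 to 5279 calls. Within libraries 41 to 60, with 2 TGF-β mice, 0 genes were called by edgeR and 158 had an unadjusted p under 0.05, and within libraries 61 to 80 6192 genes were called. Over the 3824 called genes, the median absolute log2 fold change was 0.128 within libraries 41 to 60 and 0.603 within libraries 61 to 80. A model of the 15 mice alone called 0 genes, with 4552 at an unadjusted p under 0.05 and a smallest adjusted p of 0.0682. That fit took its filter and its estimate of spread from the 15 mice, and which of these changed the count was not tested.

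**Figure D1:**
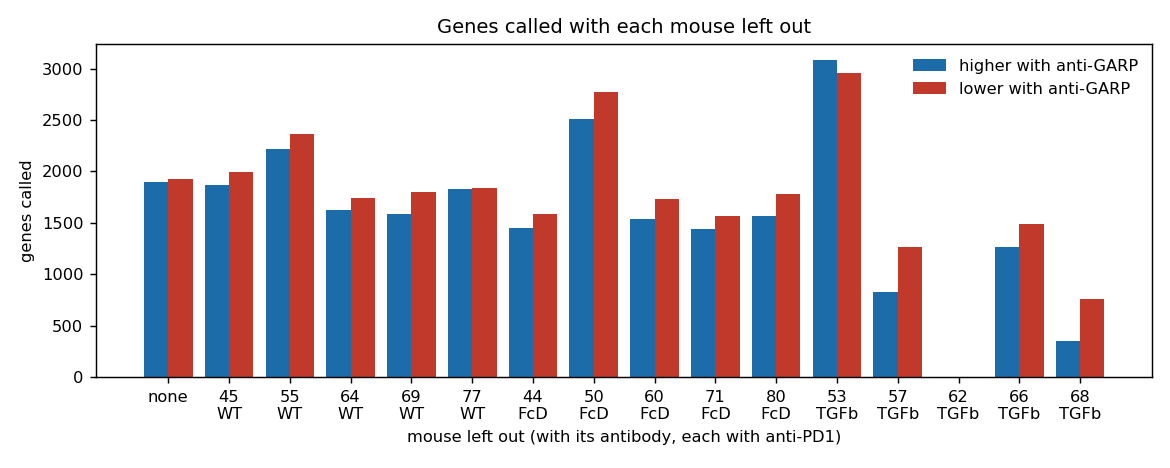
Genes called (adjusted p under 0.05, edgeR) in the GARP mice against the TGF-β mice, with all 15 mice (none) and with each mouse left out in turn (x axis). Blue bars are genes higher and red bars genes lower in the GARP mice, and both reached 0 without mouse 62 and 3084 and 2952 without mouse 53.

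The direction of a difference went with the length of the transcript. Genes were cut into 5 classes of about equal number by the length of their longest transcript. In the shortest class (longest transcript of 56 to 1939 bases), 1.14% were called higher and 34.1% lower in the GARP mice. In the longest class (5241 to 93092 bases), 41.5% were called higher and 2.08% lower. The median log2 fold change went by class from -0.24 through -0.087, 0.032 and 0.14 to 0.34, and for the WT and FcD mice taken alone, which share the 5 TGF-β mice, it was -0.25 and -0.24 in the shortest class and 0.34 and 0.32 in the longest. Without anti-PD-1, the medians of the same classes lay between -0.039 and 0.0045. A slope of expression on length was computed in each tumor, as the log2 CPM deviation per doubling of transcript length. It was 0.0618 ± 0.0879 (SD, n = 10) in the GARP mice and -0.114 ± 0.129 (SD, n = 5) in the TGF-β mice (exact permutation test, 2-sided, p = 0.00699, Benjamini-Hochberg adjusted 0.0446 over the 8 exact tests made on slopes and totals). The 5 TGF-β mice had slopes of 0.0875 (mouse 53), -0.157 (57), -0.244 (62), -0.0723 (66) and -0.185 (68). Among the GARP mice 8 had slopes between 0.0215 and 0.123, and the slopes of mice 55 and 50 were -0.0409 and -0.138. Mouse 53 thus lay among the GARP mice on this measure and mouse 50 among the TGF-β mice. Within libraries 61 to 80 the difference in slope was 0.284 (exact p = 0.0179, the smallest that 3 against 5 mice allow), and within libraries 41 to 60 it was 0.0408 (exact p = 0.667). Isotype control tumors had slopes from -0.123 to 0.067. Expression was also fitted on the GC content of the transcripts, in a separate fit that did not adjust for length. Whether the GC slopes hold anything beyond the length slopes was not tested. The slope of expression on GC, per 10 percentage points, was -0.0483 ± 0.0618 (SD, n = 10) in the GARP mice and 0.0630 ± 0.113 (SD, n = 5) in the TGF-β mice (exact permutation test, 2-sided, p = 0.0223, adjusted 0.0446). It was negative in 9 of 10 GARP mice, with mouse 50 at 0.107, and positive in 4 of 5 TGF-β mice (0.0279 to 0.170), with mouse 53 at -0.103. The difference in GC slope was -0.191 within libraries 61 to 80 (exact p = 0.0179, the smallest possible) and 0.00192 within libraries 41 to 60 (exact p = 0.952). No fit corrected for GC, so its part in the gene calls was not tested. The part of the length tilt in the gene calls below was not tested directly, and the lists with calls are mostly given beside a fit in which every library carried an offset fitted to transcript length. The offset took the length of the longest annotated transcript of each gene. Which transcript the tumors expressed was not tested, so the offset can be wrong for single genes. With that offset 562 genes (3.81%) were called higher and 876 (5.93%) lower, and 1194 of the 3824 calls were shared in the same direction. With the slope itself as a covariate, 0 genes were called by edgeR and 899 had an unadjusted p under 0.05.

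**Figure D2:**
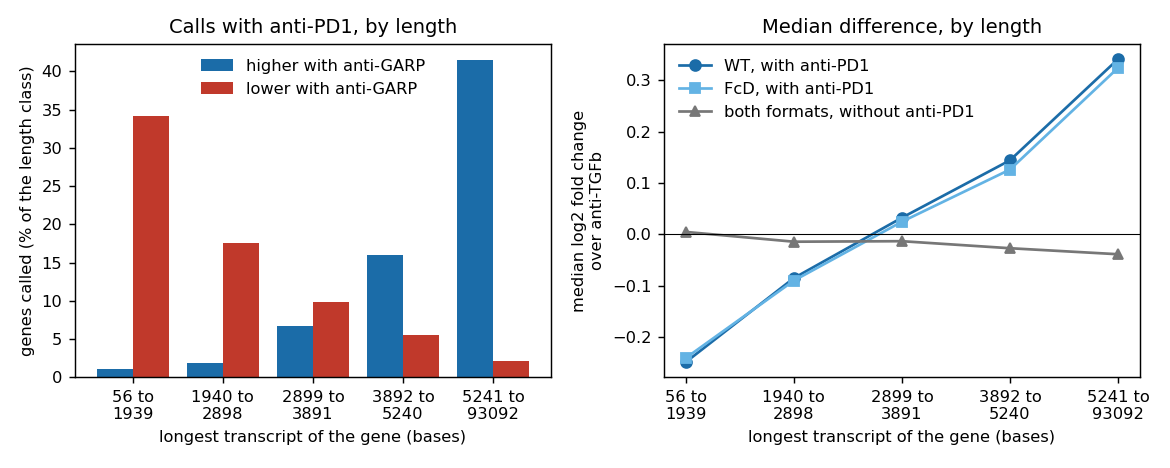
Left, percent of genes called higher (blue) or lower (red) in the GARP mice in each of 5 classes of transcript length (x axis, bases). Right, median log2 fold change over anti-TGF-β of each class for WT and FcD with anti-PD-1 (blue, -0.25 in the shortest class to 0.34 in the longest) and for both formats without anti-PD-1 (grey).

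**Figure D3:**
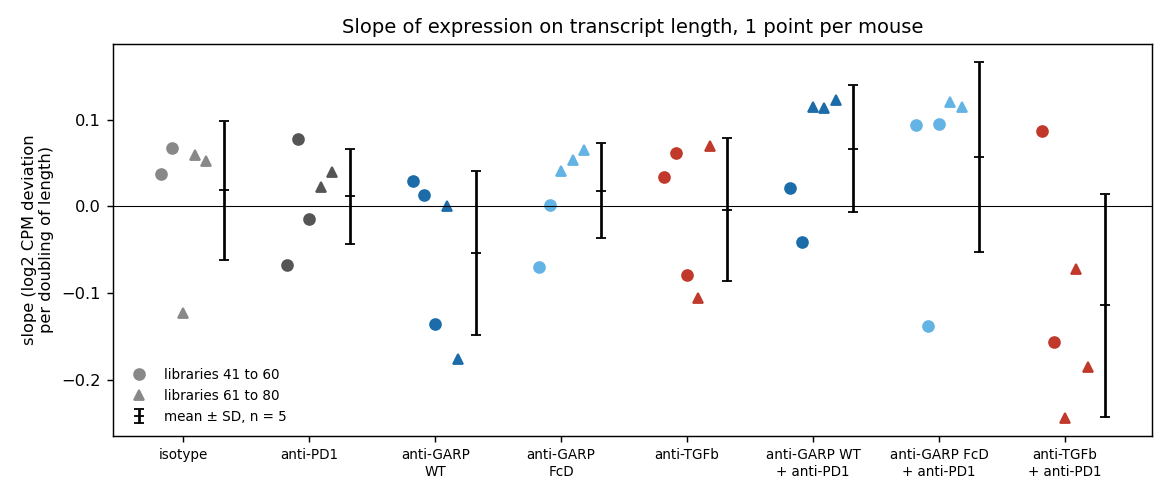
Slope of expression on transcript length (y axis, log2 CPM deviation per doubling of length) in each of the 40 mice by group, with circles for libraries 41 to 60, triangles for libraries 61 to 80 and bars for the mean ± SD (n = 5). The anti-TGF-β + anti-PD-1 tumors lay between -0.244 and 0.0875.

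Complete separation of the groups was rare. In 18 genes (0.122%) all GARP mice lay above all TGF-β mice, and in 18 (0.122%) all lay below. Among those above, Clcf1, a cytokine of the IL-6 family (chr19:4214238-4223490, plus strand), was picked for description after its values were seen. It measured between 2.77 and 5.19 CPM (median 3.85) in the GARP mice and 2.65, 1.95, 1.36, 2.55 and 1.95 CPM in the TGF-β mice, listed here and below in the order 53, 57, 62, 66 and 68. Its expression was higher in the GARP mice by 0.88 ± 0.20 (SE; adjusted p = 0.00674), with 0.88 (adjusted p = 0.0225) for WT and 0.88 (adjusted p = 0.0447) for FcD. The difference was 0.78 within libraries 41 to 60 and 0.93 within libraries 61 to 80, and it was 0.87, adjusted p = 0.0111 with the length offset. It was not called with the 15 mice alone (adjusted p = 0.0682) or with the slope covariate (0.845, adjusted p = 0.705). Clcf1 had 18 to 72 reads per tumor, and it was picked from genes in which the groups separate. Golgb1 and Ube2k were among the genes with the smallest p. Golgb1, a giant protein of the Golgi membrane, was higher in the GARP mice, at between 78.5 and 114 CPM (median 98.1) against 86.9, 67.1, 55.6, 67.0 and 67.3 CPM (0.51 ± 0.090, adjusted p = 0.00653). In the fit with the length offset its value was 0.043, adjusted p = 0.747, and its longest transcript has 11001 bases. Ube2k, a ubiquitin-conjugating enzyme, was lower, at between 76.6 and 108 CPM (median 90.4) against 95.1, 131, 141, 117 and 126 CPM (-0.40 ± 0.077, adjusted p = 0.00653). It was called with the length offset too (-0.55, adjusted p = 0.0105).

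The machinery that makes and activates TGF-β was examined next. Of 16 genes of ligands and activation tested, 3 were called higher (18.8%, against 12.9% of all genes) and 0 lower in the GARP mice, with a median log2 fold change of 0.088 against 0.040 over all genes. The median transcript length of the list was 5251 bases, and in the longest class, from 5241 bases, 41.5% of genes were called higher and 2.08% lower. Tgfb1 itself (chr7:25687002-25705077, plus strand) measured between 66.5 and 189.7 CPM (median 91.4) in the GARP mice and 107, 97.0, 101, 91.2 and 112 CPM in the TGF-β mice. The groups overlapped and the difference was 0.041 ± 0.14 (adjusted p = 0.85). Lrrc32 (chr7:98489283-98502181, plus strand), which encodes GARP, the target of the selective mAb, measured between 2.36 and 13.8 CPM (median 6.01) and 9.70, 4.81, 4.61, 3.54 and 3.70 CPM, and its difference of 0.37 ± 0.38 did not pass either (adjusted p = 0.475). Within libraries 41 to 60 that difference was -0.68 and within libraries 61 to 80 1.06, so its direction depended on the libraries. The 3 called genes were Itgav, the αv integrin chain that takes part in releasing active TGF-β, Ltbp2, a matrix protein related to those that store latent TGF-β, and Furin, the protease that cleaves the TGF-β precursor. Itgav measured between 90.6 and 162 CPM (median 139) in the GARP mice and 135, 88.6, 81.0, 92.8 and 76.1 CPM in the TGF-β mice, and 6 of 10 GARP mice lay above all TGF-β mice. Its log2 fold change was 0.50 ± 0.14 (adjusted p = 0.0112), 0.16 within libraries 41 to 60 and 0.77 within libraries 61 to 80. Ltbp2 was higher by 0.72 ± 0.21 (adjusted p = 0.0146) and Furin by 0.34 ± 0.11 (adjusted p = 0.0217). The Ltbp2 difference was 0.44 within libraries 41 to 60 and 0.91 within libraries 61 to 80. For Furin it was 0.053 within libraries 41 to 60 and 0.52 within libraries 61 to 80. With the length offset Itgav kept its call (0.22, adjusted p = 0.0466), whereas Ltbp2 (0.41, adjusted p = 0.149) and Furin (0.13, adjusted p = 0.325) lost theirs.

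Of 21 receptor, Smad and feedback genes, which carry and damp the TGF-β signal, 4 were called higher (19.0%, against 12.9% of all genes) and 0 lower in the GARP mice. The median transcript length of the list was 4538 bases, and in the class of 3892 to 5240 bases 16% of genes were called higher and 5.49% lower. Of the 21 genes, 15 had a positive and 6 a negative difference, and the median log2 fold change of the list was 0.28. It was 0.063 within libraries 41 to 60, where 0 genes of any kind were called, and 0.29 within libraries 61 to 80. Id1, an inhibitor of differentiation that answers to TGF-β and BMPs, had the smallest p among the negative ones (-0.48, adjusted p = 0.0511). The 4 were Skil and Ski, co-repressors that bind Smads and limit TGF-β transcription, and Smurf1 and Smurf2, ubiquitin ligases that degrade Smads and receptors. Skil (chr3:31095058-31122577, plus strand), itself a textbook target of TGF-β, measured between 40.8 and 88.3 CPM (median 59.2) in the GARP mice and 48.8, 39.7, 31.0, 44.2 and 36.1 CPM in the TGF-β mice. In 9 of 10 GARP mice Skil lay above every TGF-β mouse, the exception being mouse 50, and isotype control tumors lay at 40.2 to 60.0 CPM. The fold change was 0.57 ± 0.16 (adjusted p = 0.0131), 0.26 within libraries 41 to 60 and 0.80 within libraries 61 to 80. Smurf1 measured between 113 and 183 CPM (median 157) against 158, 117, 104, 109 and 99.8 CPM, so that mouse 53 lay among the GARP mice (0.38 ± 0.10, adjusted p = 0.0113). The difference in Smurf1 was 0.19 within libraries 41 to 60 and 0.52 within libraries 61 to 80. Ski (0.34 ± 0.095, adjusted p = 0.0131) and Smurf2 (0.44 ± 0.13, adjusted p = 0.0138) gave differences of a like size. Smad7, the inhibitory Smad, measured between 25.7 and 39.6 CPM (median 31.8) and 29.4, 25.4, 29.9, 22.1 and 21.8 CPM and did not pass the threshold (0.30 ± 0.12, adjusted p = 0.0603). In the fit with the length offset 0 of the 21 genes were called in either direction, and the median of the list was 0.13. For Skil the value was then 0.29, adjusted p = 0.078, and for Smurf2 it was 0.27, adjusted p = 0.0506.

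**Figure D4:**
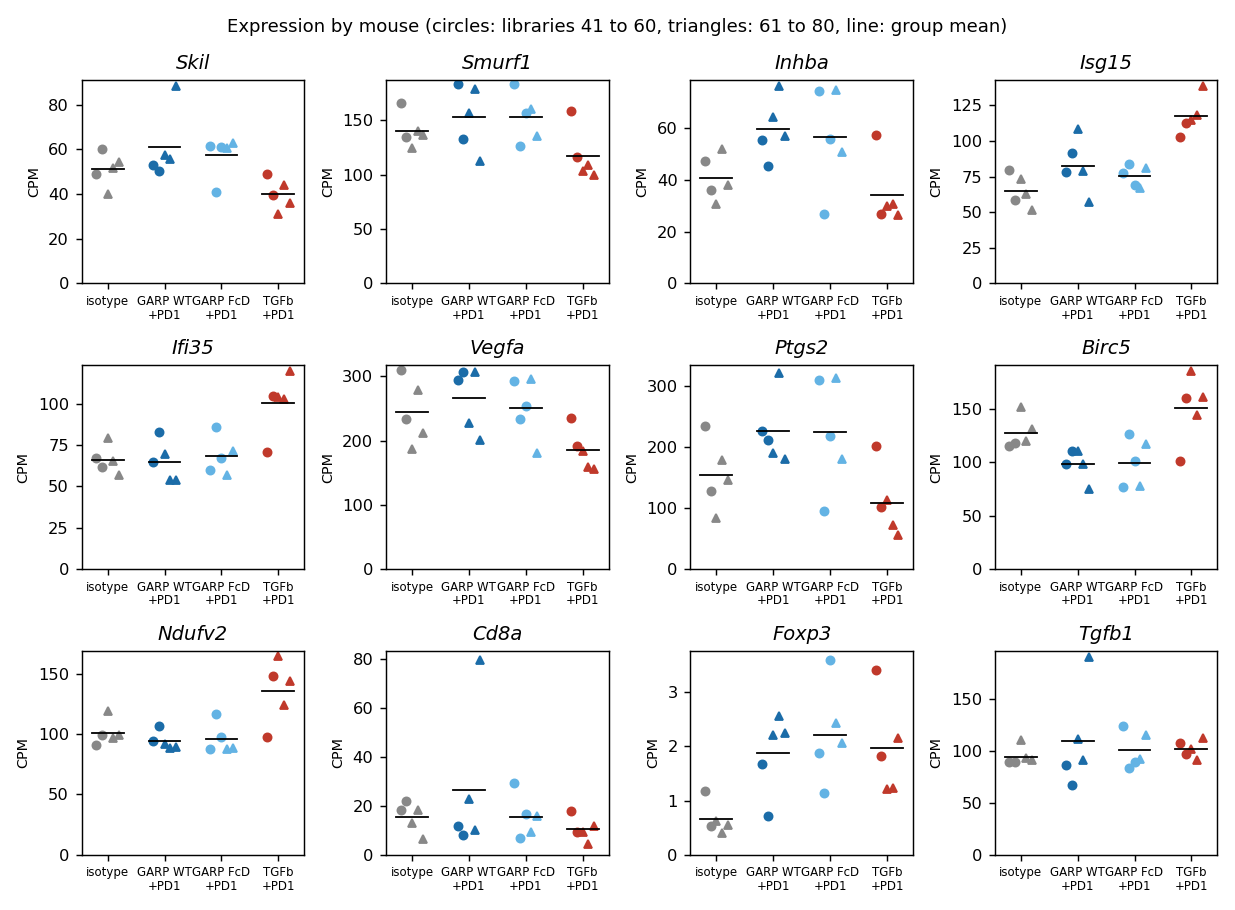
Expression in CPM (y axis, from 0) of 12 genes in tumors of isotype control mice and of the WT, FcD and TGF-β mice given anti-PD-1, 1 point per mouse, with lines for group means, circles for libraries 41 to 60 and triangles for libraries 61 to 80. In Isg15 9 of 10 GARP mice lay below all TGF-β mice, and in Skil 9 of 10 lay above them.

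Among stromal targets of TGF-β, genes of matrix and contractile cells that the cytokine induces, 4 of 38 were called higher and 1 lower in the GARP mice, shares of 10.5% and 2.63% that lay below those of all genes (12.9% and 13.0%). The median log2 fold change was 0.38, and it was 0.37 with the length offset, where 1 gene was called higher and 0 lower. The list rested on libraries 61 to 80, in which its median was 0.77, against -0.16 within libraries 41 to 60, and without mouse 53 it was 0.57. Inhba, which encodes the activin A subunit, measured between 26.9 and 76.3 CPM (median 56.5) in the GARP mice and 57.2, 26.9, 29.9, 30.6 and 26.4 CPM in the TGF-β mice. The TGF-β mice other than mouse 53 lay at 30.6 CPM or less, as mouse 50 did among the GARP mice. The fold change was 0.77 ± 0.22 (adjusted p = 0.0151), 0.29 within libraries 41 to 60 and 1.15 within libraries 61 to 80, and it narrowly lost its call with the length offset (0.52, adjusted p = 0.0503). Fn1, which encodes fibronectin, was called higher at between 1179 and 2632 CPM (median 1721) against 1576, 1042, 947, 922 and 971 CPM (0.60 ± 0.18, adjusted p = 0.0153). Its value was 0.24 within libraries 41 to 60 and 0.84 within libraries 61 to 80, and 0.25, adjusted p = 0.248 with the length offset. Loxl4 and Pdpn were the other called genes (0.53 and 0.36, adjusted p = 0.0384 and 0.0467), and these 2 were named after their values were seen. Timp1, an inhibitor of matrix metalloproteinases with a short transcript of 883 bases, went the other way, at between 93.5 and 189.5 CPM (median 135) against 152, 217, 309, 141 and 186 CPM (-0.51 ± 0.18, adjusted p = 0.0367). The difference in Timp1 was -0.23 within libraries 41 to 60 and -0.75 within libraries 61 to 80. Its call was kept in 8 of 15 fits with a mouse left out and lost with the length offset (-0.15, adjusted p = 0.474). Without mouse 62 it was -0.31 (adjusted p = 0.259). No member passed among 19 collagen genes, with 1 in each direction at an unadjusted p under 0.05, and Col1a1 measured between 202 and 599 CPM (median 386) against 533, 247, 419.9, 317 and 286 CPM (0.16 ± 0.30, adjusted p = 0.704). Nor did any of 13 matrix metalloproteinase genes, where 3 were higher and 1 lower at an unadjusted p under 0.05.

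The study's list of genes that TGF-β1 induces in cultured cells came from human cells. Its 153 genes were matched to mouse genes by symbol alone, which left 113 tested. Of these 113 members, 21 were called higher (18.6%, against 12.9% of all genes) and 3 lower (2.65%, against 13.0%), with a median log2 fold change of 0.31. With the length offset 5 were called higher, near the 3.81% of all genes in that fit, 0 lower, and the median was 0.24. Its subset from CD4+ T cells gave 10 of 40 higher (25.0%) and 3 lower, with a median of 0.26, and 3 higher and 0 lower with the offset. Mical2, an actin-oxidizing enzyme, measured between 31.5 and 53.0 CPM (median 45.6) in the GARP mice against 44.3, 25.7, 25.2, 28.3 and 24.9 CPM (0.59 ± 0.13, adjusted p = 0.00653), and Ahcyl2 was higher by 0.50 ± 0.11 (adjusted p = 0.00714). Both kept their calls with the length offset, at 0.33, adjusted p = 0.0299 and 0.33, adjusted p = 0.018. Within libraries 41 to 60 the median of the 113 genes was -0.0069, and within libraries 61 to 80 it was 0.50.

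Of 20 T cell receptor and coreceptor genes, 0 were called by edgeR in either direction, 2 were higher at an unadjusted p under 0.05 (21.1% of all genes were), and 20 had a positive difference. The median log2 fold change was 0.52, and it was 0.041 without mouse 77, the lowest of the 15 values with a mouse left out. Cd8a, the coreceptor of cytotoxic T cells, measured between 6.64 and 79.7 CPM (median 13.7) in the GARP mice and 18.04, 9.29, 9.22, 4.20 and 11.5 CPM in the TGF-β mice, and the value of mouse 77 was 79.7 CPM. The difference was 0.96 ± 0.59 (adjusted p = 0.217), -0.053 within libraries 41 to 60 and 1.38 within libraries 61 to 80, and 0.45 without mouse 77. Foxp3, which defines Tregs, measured between 0.719 and 3.61 CPM (median 2.14) and 3.41, 1.82, 1.21, 1.24 and 2.16 CPM, from 14 to 45 reads in each tumor, and differed by 0.050 ± 0.39 (adjusted p = 0.935). The difference in Foxp3 was -0.69 within libraries 41 to 60 and 0.57 within libraries 61 to 80, so its direction depended on the libraries. No gene was called among 15 Treg genes (2 higher at an unadjusted p under 0.05, median 0.37) or 15 exhaustion and inhibitory receptor genes (3 higher, median 0.60, and 0.31 without mouse 77, with 15 positive differences), and neither count at an unadjusted p exceeds the share of all genes. Pdcd1, which encodes PD-1 and is the target of the mAb all 15 mice had received, measured between 3.24 and 46.3 CPM (median 6.20) and 10.8, 5.46, 5.67, 2.31 and 5.12 CPM (0.89 ± 0.55, adjusted p = 0.223). Mouse 77 had the 46.3 CPM, and without it the difference in Pdcd1 was 0.31. With all mice it was -0.21 within libraries 41 to 60 and 1.24 within libraries 61 to 80.

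Cytotoxic molecules gave 1 called gene in each direction among 19 (5.26%), below the 12.9% and 13.0% of all genes. Gzmk, a granzyme of memory T cells, measured between 1.06 and 20.7 CPM (median 1.98) in the GARP mice and 2.96, 1.04, 0.378, 0.329 and 1.21 CPM in the TGF-β mice (1.75 ± 0.67, adjusted p = 0.0496). The highest values came from mice 77 and 44, and the call was kept in 7 of 15 fits with a mouse left out, with a value of 1.02 without mouse 77. The difference in Gzmk was 0.33 within libraries 41 to 60 and 2.60 within libraries 61 to 80. Its call was lost with the length offset (1.95, adjusted p = 0.0683). Gzma, a granzyme of T and NK cells, was lower, at between 31.9 and 57.6 CPM (median 43.2) against 32.1, 79.1, 74.1, 79.5 and 116 CPM (-0.76 ± 0.29, adjusted p = 0.0472). The TGF-β mice other than mouse 53 lay at 74.1 CPM or more and the GARP mice at 57.6 CPM or less. Its difference was -0.33 within libraries 41 to 60 and -0.98 within libraries 61 to 80, and its call was kept in 5 of 15 such fits and lost with the length offset (-0.41, adjusted p = 0.316). Gzmb, the main granzyme of activated killer cells, overlapped at between 65.6 and 290.3 CPM (median 116) against 131, 112, 88.4, 81.8 and 135 CPM (0.35 ± 0.34, adjusted p = 0.456), and so did Ifng at between 1.75 and 5.67 CPM (median 3.15) against 3.26, 3.77, 2.95, 2.06 and 4.51 CPM (-0.039 ± 0.39, adjusted p = 0.948). In isotype control tumors Gzmb lay at 34.7 to 81.8 CPM and Ifng at 0.554 to 1.61 CPM. Among 13 NK cell genes Gzma alone was called.

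Of 60 type I interferon-stimulated genes, which cells switch on against viruses, 8 were called lower and 0 higher in the GARP mice. The share called lower, 13.3%, was near the 13.0% of all genes and is no result about the list. Among the 60 genes 26 had a positive and 34 a negative difference, and the median log2 fold change was -0.041. The 8 were Ifi35, Isg15, Oas1g, Oas1a, Ifi27l2a, Bst2, Ifit3b and Cxcl10, and reads of Oas1g, Oas1a and Ifit3b may be split with near-identical copies. Isg15, a ubiquitin-like protein, measured between 56.9 and 109 CPM (median 78.3) in the GARP mice and 103, 113, 115, 118 and 139 CPM in the TGF-β mice, and in isotype control tumors it lay at 51.3 to 79.7 CPM. Only mouse 64 of the GARP mice reached the range of the TGF-β mice. The fold change was -0.57 ± 0.14 (adjusted p = 0.0085), -0.42 within libraries 41 to 60 and -0.68 within libraries 61 to 80. Ifi35, an interferon-induced leucine zipper protein, measured between 53.8 and 85.7 CPM (median 66.1) against 70.7, 105, 104, 103 and 120.1 CPM, with mouse 53 again among the GARP mice (-0.59 ± 0.13, adjusted p = 0.00653), -0.28 within libraries 41 to 60 and -0.82 within libraries 61 to 80. Oas1a, an enzyme that activates RNA decay on sensing double-stranded RNA, was lower by 0.49 (log2 fold change -0.49, adjusted p = 0.0115), and Cxcl10, the chemokine of activated T cells, measured between 59.4 and 147 CPM (median 107) against 104, 157, 148, 185 and 195 CPM (-0.52 ± 0.20, adjusted p = 0.0491, called in 5 of 15 fits with a mouse left out). The latter differed by -0.19 within libraries 41 to 60 and -0.74 within libraries 61 to 80. With the length offset 1 of the 60 genes was called lower, namely Ifi35 at -0.34, adjusted p = 0.0474. Isg15 was then at -0.21, adjusted p = 0.357, and its longest transcript has 756 bases. Without anti-PD-1, in mice not used above, Isg15 differed by -0.42 ± 0.14 and Cxcl10 by -0.61 ± 0.20 between the same mAbs. Both differences had the same direction as above, but 0 genes were called there (adjusted p = 0.959 each in edgeR). The median of the 60 genes without anti-PD-1 was -0.36, against -0.019 over all genes tested.

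The promoters of 3 of the 8 genes are shown because they carry the interferon-stimulated response element, a sequence through which interferons switch on their target genes. The motif searched, GAAA followed by any 2 bases and GAAA, or TTTC, any 2 bases and TTTC for the other strand, is in capitals in the 250 bases before the RefSeq start (GRCm38.p6), 5′ to 3′ on the strand of the gene.
Isg15 (chr4:156200819-156201068, minus strand): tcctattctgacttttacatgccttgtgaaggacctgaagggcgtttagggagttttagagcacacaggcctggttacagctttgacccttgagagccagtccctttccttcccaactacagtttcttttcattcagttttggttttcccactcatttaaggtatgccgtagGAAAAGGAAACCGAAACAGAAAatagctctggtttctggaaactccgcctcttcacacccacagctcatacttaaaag
Oas1a (chr5:120907526-120907775, minus strand): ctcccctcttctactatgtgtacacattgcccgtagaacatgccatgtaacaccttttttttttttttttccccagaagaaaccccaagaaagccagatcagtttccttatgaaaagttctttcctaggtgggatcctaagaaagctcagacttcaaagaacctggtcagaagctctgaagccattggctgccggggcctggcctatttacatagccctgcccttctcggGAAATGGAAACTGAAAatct
Cxcl10 (chr5:92348890-92349139, minus strand): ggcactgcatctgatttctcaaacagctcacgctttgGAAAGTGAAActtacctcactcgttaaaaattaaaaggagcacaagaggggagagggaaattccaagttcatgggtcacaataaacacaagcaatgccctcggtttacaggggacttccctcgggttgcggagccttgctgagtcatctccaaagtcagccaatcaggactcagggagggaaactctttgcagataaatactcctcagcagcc
Overlapping matches counted, the motif occurs 3 times for Isg15, 2 times for Oas1a and 1 time for Cxcl10. The motif was in the window of 6 of the 7 called genes with a RefSeq promoter (not in Ifi35), in 15 of 39 other members of the list, and in 3.38% of the 9909 tested genes with a promoter. The list consists of interferon targets, so its share says nothing about the called genes in particular.

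MHC class I presentation gave 3 of 23 genes lower, the same share of 13.0% as over all genes, and 0 higher, with a median log2 fold change of -0.14. These were the proteasome activator genes Psme1 and Psme2 and the immunoproteasome gene Psmb10, all parts of the system that makes peptides for MHC class I. Psme2 measured between 231 and 358 CPM (median 278) in the GARP mice and 269, 430.2, 459, 341 and 491 CPM in the TGF-β mice (-0.53 ± 0.14, adjusted p = 0.0115), -0.24 within libraries 41 to 60 and -0.75 within libraries 61 to 80. All 3 calls were lost with the length offset, where 0 of 23 genes were called in either direction and Psme2 was at -0.19, adjusted p = 0.312. The study's IFNγ, TNFα and IL-1β signatures also came from cultured human cells and were matched to mouse genes by symbol. The IFNγ signature gave 32 of 206 genes lower (15.5%) and 11 higher (5.34%), with a median of -0.012, and 14 and 3 with the offset. The TNFα signature gave 31 of 277 higher (11.2%, against 12.9% of all genes) and 16 lower (5.78%), with a median of 0.14, and 14 and 4 with the offset. The IL-1β signature gave 31 of 268 higher (11.6%) and 23 lower (8.58%), with a median of 0.096, and 14 and 9 with the offset. The core list of IFNγ response genes gave 2 of 35 higher (5.71%) and 1 lower (2.86%). None of 13 MHC class II genes (1 higher at an unadjusted p under 0.05), of 8 Fcγ receptor genes (0 at that p) or of 15 complement genes (2 higher at that p) was called by edgeR.

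**Figure D5:**
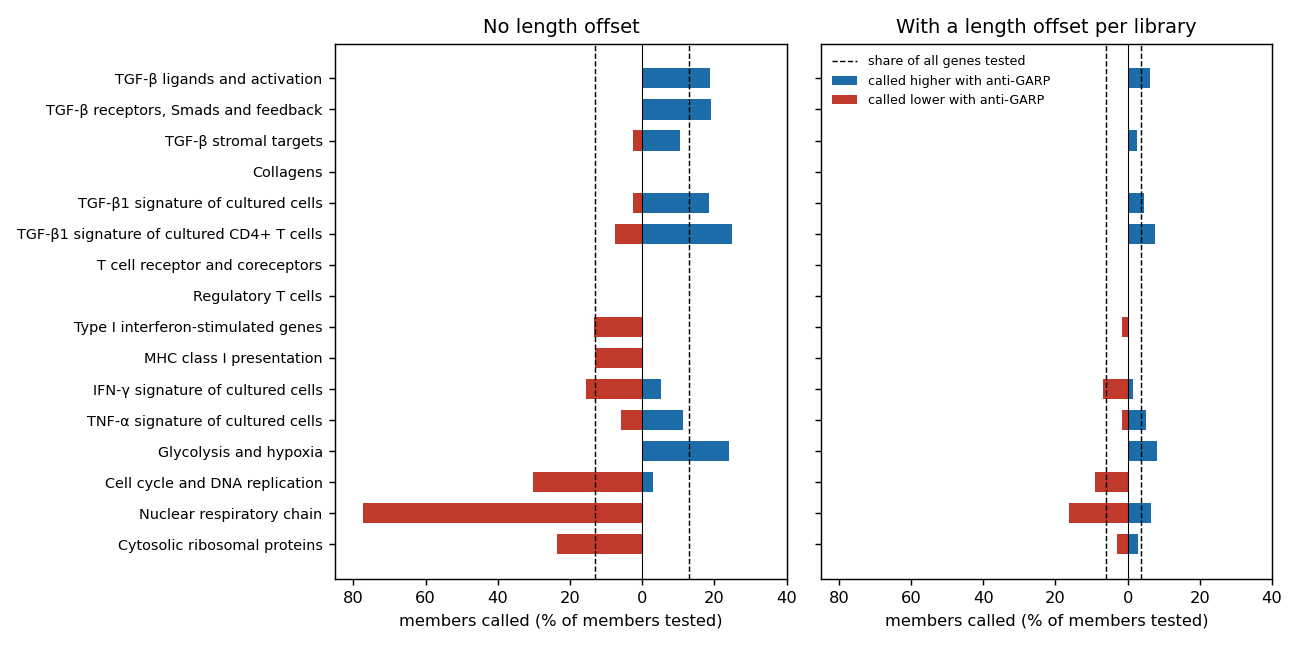
Percent of tested members called higher (blue, to the right) or lower (red, to the left) in the GARP mice for 16 gene lists, without (left) and with (right) a length offset per library. Dashed lines give the shares of all genes tested, 12.9% and 13.0% on the left and 3.81% and 5.93% on the right. The respiratory chain stands farthest from the lines, with 24 of 31 members lower on the left and 5 of 31 on the right.

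Of the inflammatory genes, Ptgs2 and Slc7a2 were called higher without and with the length offset. Ptgs2, the inducible cyclooxygenase that makes prostaglandins, measured between 95.9 and 320.4 CPM (median 215) in the GARP mice and 201, 101, 114, 71.8 and 55.0 CPM in the TGF-β mice, and 6 of 10 GARP mice lay above all TGF-β mice. It was higher by 1.05 ± 0.30 (adjusted p = 0.0131), 0.50 within libraries 41 to 60 and 1.57 within libraries 61 to 80, and by 0.96, adjusted p = 0.0324 with the offset. Ptgs2 and Il1a (0.81, adjusted p = 0.0452) were the 2 called among 20 genes of the IL-1 family and acute inflammation, of which 0 were called lower. Slc7a2, a transporter of arginine, was called higher at between 4.07 and 77.9 CPM (median 14.2) against 14.4, 3.77, 4.69, 2.72 and 3.30 CPM (1.95 ± 0.52, adjusted p = 0.0109). Its value was 77.9 CPM in mouse 71, and the difference was 0.35 within libraries 41 to 60 and 3.24 within libraries 61 to 80. It was 1.64, adjusted p = 0.0296 with the offset. Read against the 12.9% of all genes called higher and the 13.0% called lower, the IL-1 family (10% higher) and the next 5 lists, with at most 12% higher and 7.14% lower, held no larger share of called genes. Eicosanoid genes gave 2 of 21 higher and 1 lower, and genes of arginine and tryptophan metabolism 1 of 12 higher (Slc7a2) and 0 lower. Of 25 TNF and NF-kB response genes 3 were called higher and 1 lower, and of 14 monocyte chemokine genes 1 in each direction. Among 23 macrophage genes 1 was called higher (Vegfa) and 0 lower. Adgre1, which encodes the macrophage marker F4/80, did not pass, at between 88.4 and 925 CPM (median 218) against 220.2, 110.3, 83.5, 96.5 and 89.2 CPM (1.09 ± 0.46, adjusted p = 0.0733), and it was at 925 CPM in mouse 77, without which the difference was 0.57. With all mice it was -0.093 within libraries 41 to 60 and 1.82 within libraries 61 to 80 (adjusted p = 0.00664 in edgeR). DESeq2's Wald test gave Adgre1 an adjusted p of 0.0486.

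Of 25 glycolysis and hypoxia genes, 6 were called higher (24.0%, against 12.9% of all genes) and 0 lower, and 23 had a positive difference (median 0.19, 0.17 within libraries 41 to 60 and 0.23 within libraries 61 to 80). With a mouse left out, 0 to 9 were called higher and the median ran from 0.11 (without mouse 66) to 0.28 (without mouse 62). Without anti-PD-1 the median of this list was 0.15. Vegfa, the vascular growth factor induced by hypoxia, measured between 181 and 307 CPM (median 274) in the GARP mice and 236, 192, 184, 159 and 156 CPM in the TGF-β mice. Its difference was 0.48 ± 0.14 (adjusted p = 0.0134), and it stayed close to that within each set of libraries (0.38 within libraries 41 to 60 and 0.54 within libraries 61 to 80) and with the length offset (0.48, adjusted p = 0.0292). Isotype control tumors lay at 187 to 309.6 CPM, which covers 9 of the 10 GARP mice. Hk2, the hexokinase of rapidly growing cells, measured between 95.6 and 213 CPM (median 157) against 152, 85.4, 95.6, 76.6 and 81.1 CPM (0.64 ± 0.19, adjusted p = 0.0166), 0.40 within libraries 41 to 60 and 0.82 within libraries 61 to 80. Pgam1, a glycolytic mutase, was higher by 0.30 ± 0.11 (adjusted p = 0.0392, called in 4 of 15 fits with a mouse left out) and by 0.48, adjusted p = 0.0277 with the offset. The other 3 called genes were Hk1, Ero1l and Pfkp (0.30, 0.75 and 0.41). With the offset 2 genes, Vegfa and Pgam1, were called higher and 0 lower.

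Nuclear-encoded genes of the respiratory chain, whose products pass electrons to oxygen and make ATP in mitochondria, gave the highest share of calls of any list. Of 31 members 24 were called lower (77.4%, against 13.0% of all genes) and 0 higher in the GARP mice, with a median log2 fold change of -0.31. Ndufv2, a subunit of complex I, measured between 87.6 and 117 CPM (median 91.0) in the GARP mice and 97.5, 149, 166, 124 and 145 CPM in the TGF-β mice. The 7 lowest tumors were GARP mice, mouse 53 lay among the GARP mice, and the fold change was -0.52 ± 0.094 (adjusted p = 0.00653), -0.30 within libraries 41 to 60 and -0.70 within libraries 61 to 80. Atp5g1, a subunit of the ATP synthase ring, measured between 53.9 and 98.0 CPM (median 68.9) against 74.8, 106, 125, 107 and 118 CPM (-0.60 ± 0.12, adjusted p = 0.00653). Sdha, a subunit of complex II, had a positive difference that did not pass (0.083 ± 0.040, adjusted p = 0.115). The median transcript length was 1553 bases for the 24 called genes and 2674 bases for the other 7. After the length offset, where 5.93% of all genes were called lower and 3.81% higher, 5 members were called lower and 2 higher, and the median was -0.092. Ndufv2 (-0.31, adjusted p = 0.0105) and Atp5g1 (-0.73, adjusted p = 0.0105) were still called, the latter with a longest transcript of 4715 bases, and Sdha was called higher (0.13, adjusted p = 0.0346). Whether the tumors expressed that transcript of Atp5g1 was not tested. Within libraries 41 to 60 the median of the list was -0.069 and within libraries 61 to 80 it was -0.49. Without anti-PD-1 it was -0.023.

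Cytosolic ribosomal protein genes had negative differences in 34 of 34 members tested, of which 8 were called lower (23.5%, against 13.0% of all genes) and 0 higher (median -0.34). Their median transcript length was 1139.5 bases, and in the shortest class, of 56 to 1939 bases, 34.1% of genes were called lower. The share of the list thus did not exceed that of short genes. With a mouse left out, 0 to 27 of the ribosomal protein genes were called lower. Most have processed copies in the genome with which reads can be shared. After the length offset 1 gene was called lower and 1 higher, and the median was -0.084. Rpl18 measured between 598 and 1421 CPM (median 819) against 765, 1320, 1803, 1355 and 1451 CPM, the highest GARP mouse being mouse 50. Its difference of -0.60 ± 0.17 (adjusted p = 0.0136) was -0.021 within libraries 41 to 60 and -1.06 within libraries 61 to 80, and -0.56, adjusted p = 0.0297 with the offset. Within libraries 41 to 60 the median of the list was 0.072, and within libraries 61 to 80 it was -0.74 with 34 of 34 called lower, against 19.8% of all genes in that fit. Without anti-PD-1 the median was 0.20.

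Of 33 cell cycle and DNA replication genes, 10 were called lower (30.3%, against 13.0% of all genes) and 1 higher, with a median log2 fold change of -0.12, and of -0.099 within either set of libraries. Birc5, which encodes survivin of dividing cells, measured between 74.6 and 127 CPM (median 99.8) in the GARP mice and 102, 160.3, 185, 144 and 162 CPM in the TGF-β mice, and isotype control tumors lay at 115 to 152 CPM. The fold change was -0.60 ± 0.13 (adjusted p = 0.00653), -0.35 within libraries 41 to 60 and -0.77 within libraries 61 to 80. It was -0.60, adjusted p = 0.0105 with the length offset. Cdk1, the kinase that drives mitosis, was lower by 0.34 (log2 fold change -0.34, adjusted p = 0.0153) and stayed called with the offset (-0.44, adjusted p = 0.0209). Mki67, the proliferation marker, was the gene called higher, at between 166 and 298 CPM (median 246) against 255, 175, 151, 183 and 188 CPM (0.35 ± 0.12, adjusted p = 0.0306). The difference was -0.015 within libraries 41 to 60 and 0.63 within libraries 61 to 80. Its longest transcript has 10061 bases, and with the offset its difference was -0.089, adjusted p = 0.427. With the offset 3 genes, Birc5, Cdk1 and Tyms, were called lower and 0 higher, and the median was -0.13.

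B and plasma cell genes had the lowest median of any list, -1.32 over 18 genes, with 2 called lower and 0 higher. The B cell signal came from 1 tumor, mouse 68. Mzb1, a chaperone of antibody-secreting cells, measured 0.682, 0.0649, 0.302, 0.247 and 14.4 CPM in the TGF-β mice and between 0.103 and 0.674 CPM (median 0.375) in the GARP mice, and its fold change of -2.90 ± 0.78 (adjusted p = 0.0109) became 0.36 (adjusted p = 0.773) without mouse 68. Without that mouse the median of the list was 0.76. Ccl21a, the chemokine of lymph node stroma, followed the same pattern, at 1.06, 0, 0.0756, 0 and 16.2 CPM in the TGF-β mice, and its paralogs may share its reads (-4.29 ± 1.27, adjusted p = 0.016, and -0.70 without mouse 68). Lymphoid and dendritic cell chemokines gave 2 of 13 lower, Ccl21a and Cxcl10, and 0 higher. Adipocyte genes had the highest median of any list, 1.24 over 14 genes, with 0 called by edgeR and 0 at an unadjusted p under 0.05, and it was -0.15 within libraries 41 to 60 and -1.57 without anti-PD-1. It was 0.75 without mouse 71 and 1.95 without mouse 53, and it was 0.22 for the WT mice and 2.17 for the FcD mice. Adipocyte markers summed to 2.56 to 130 CPM in the GARP mice and 0.988 to 27.1 CPM in the TGF-β mice. Neutrophil genes and the chemokines that attract neutrophils gave 0 calls of 16 (1 lower at an unadjusted p under 0.05) and 0 calls of 7 (0 at that p), with medians of 0.14 and -0.43. Shares of 11.1% of the B and plasma cell genes and 15.4% of the chemokine genes called lower compare with 13.0% of all genes. Of the lists for other cells, with shares of at most 11.1%, 1 of 20 dendritic cell genes, 1 of 10 skeletal muscle genes and 1 of 9 skin genes were called lower, 1 of 10 mast cell genes was called higher, and 0 of 19 endothelial genes (0 at an unadjusted p under 0.05) and 0 of 11 epithelial genes (2 higher at that p) were called by edgeR.

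The WT and FcD mice were also set against the TGF-β mice one format at a time. The WT mice alone gave 2684 called genes (18.2%) and the FcD mice 954 (6.46%), and 845 genes were called in the same direction in both. These comparisons share the 5 TGF-β mice. Between the WT and FcD mice themselves, 0 genes were called by edgeR, 192 had an unadjusted p under 0.05, and DESeq2 called 0. For Skil the fold changes over the TGF-β mice were 0.61 (adjusted p = 0.027) for WT and 0.52 (adjusted p = 0.0608) for FcD, for Isg15 -0.51 (adjusted p = 0.0341) for WT and -0.64 (adjusted p = 0.0447) for FcD, for Ptgs2 1.06 (adjusted p = 0.0308) for WT and 1.04 (adjusted p = 0.0494) for FcD and for Birc5 -0.61 (adjusted p = 0.0225) for WT and -0.59 (adjusted p = 0.0447) for FcD. For Cd8a they were 1.34 (adjusted p = 0.133) for WT and 0.57 (adjusted p = 0.561) for FcD.

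The same mAbs were also compared in mice that had received no anti-PD-1 (10 with anti-GARP:TGF-β1, 5 with anti-TGF-β), a comparison that shares no mouse with the one above. There 0 genes were called by edgeR, 639 had an unadjusted p under 0.05, the smallest adjusted p was 0.212, and DESeq2 called 1. Of the 3824 genes called with anti-PD-1, 40.0% had the same sign without it, and so had 37.9% of all genes tested. Skil differed by -0.053 ± 0.16, Smurf1 by 0.15 ± 0.10, Inhba by -0.12 ± 0.22, Ndufv2 by -0.010 ± 0.096 and Birc5 by -0.0079 ± 0.13 without anti-PD-1. Fn1 differed by 0.55 ± 0.18 and Mical2 by 0.37 ± 0.13 there, and neither passed (adjusted p = 0.959 each). The difference between the settings, tested as an interaction, passed for 0 genes in edgeR (4868 at an unadjusted p under 0.05, smallest adjusted p 0.0896), and DESeq2 called 1075. For Skil the interaction had an adjusted p of 0.0899, for Ndufv2 of 0.0896, for Isg15 of 0.608 and for Fn1 of 0.903.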

How the data were processed

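RNA-seq of tumor fragments was prepared with a stranded mRNA kit and sequenced paired-end. Per the labels and the submitters' processing notes, the authors aligned reads with STAR 2.5.3a, handled files with SAMtools 1.6 and counted them on genes with HTSeq 0.9.1 (GRCm38), and the deposited values are raw read counts per gene for 40 mice. Genes were filtered with filterByExpr by group, leaving 14760 of 54087, and all 8 groups were fitted in 1 model with edgeR 4.0.16 (TMM, robust quasi-likelihood, R 4.3.3), with p-values adjusted by the Benjamini-Hochberg method over all genes tested and a threshold of 0.05. The contrast was the mean of both anti-GARP:TGF-β1 groups minus anti-TGF-β, each with anti-PD-1. CPM are TMM-scaled. The SE of a fold change was derived from the F statistic. DESeq2 1.42.0 was an alternative. Transcript lengths came from GENCODE M21 (86.5% of genes tested), promoters from RefSeq. Genes were named by rule (the 10 smallest p in each direction, the smallest p per list and direction, and a fixed list of TGF-β, T cell, myeloid and interferon genes), only part of which are described. Other named genes were chosen after their values were seen. The members and the 42 gene lists were chosen with earlier results of these data known. The length fits and the counts within library sets were added after seeing the data. Counts of replicate pairs differed beyond sampling noise (chi-square per degree of freedom of 7.02 or more in 30 pairs), so each mouse counts as 1 sample. Some genes are not reported here.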

Additional observations from a re-analysis of the deposited data

Results flagged for a closer look

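In groups of 5 mice, a tumor was picked out where its gap to the nearest other tumor exceeded 0.71 of the whole range of the group (Dixon's 95% critical value). Of 180 groups examined, 39 (21.7%) held such a tumor, and the values of 1 tumor are not independent. Chance gives about 1 in 20 for normally distributed values. CPM were used without a log scale, and most groups were of genes chosen for description, so 21.7% does not measure an excess over chance.

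Mouse 77 (WT) held 13 of them. Its values were 88.3 CPM for Skil, 79.7 CPM for Cd8a, 46.3 CPM for Pdcd1, 20.7 CPM for Gzmk and 925 CPM for Adgre1, each the highest of its group, and 107 CPM for Cdk1 and 53.9 CPM for Atp5g1, each the lowest. Its summed markers were 188 CPM for T cells, 2110 CPM for macrophages, 172 CPM for neutrophils, 376 CPM for endothelium, 15.7 CPM for keratinocytes and 135 CPM for Krt8, Krt18 and Epcam. In mouse 45 of the same group, Ccl21a was at 0.292 CPM.

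Among the FcD mice, mouse 50 had 90.6 CPM of Itgav, 40.8 CPM of Skil and a length slope of -0.138, each the lowest of its group, and 1420 CPM of Rpl18 and 4.45 CPM of summed skeletal muscle markers, each the highest. Mouse 44 had 18.7 CPM of Pdcd1 and 7.71 CPM of Gzmk. Mouse 71 had 77.9 CPM of Slc7a2, 25.7 CPM of keratinocyte markers and 320 CPM of Krt8, Krt18 and Epcam together.

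Among the TGF-β mice, mouse 53 was the highest for Lrrc32 (9.70 CPM), Itgav (135 CPM), Furin (159 CPM), Smurf1 (158 CPM), Inhba (57.2 CPM), Fn1 (1580 CPM), Adgre1 (220 CPM), Slc7a2 (14.4 CPM), Hk2 (151 CPM) and Mical2 (44.3 CPM). Its macrophage markers summed to 714 CPM and its adipocyte markers to 27.1 CPM. Mouse 68 had 14.4 CPM of Mzb1, 16.2 CPM of Ccl21a and 57.0 CPM of B cell markers. The part of these tumors in the differences between groups was not tested beyond leaving each mouse out.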

How the results depend on the processing

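No paired analysis was possible because the labels give no shared replicate numbers. The pooled contrast with anti-PD-1 gave 3824 calls and 2454 with no filter on low counts, 0 with the 15 mice alone, 1438 with the length offset, 0 with the length slope as a covariate, 0 within libraries 41 to 60 and 6192 within libraries 61 to 80. DESeq2's size factors, a fit that was not robust, the library set as a covariate, WT and FcD as 1 group and DESeq2's Wald test gave 3835 to 4271. With a mouse left out the count ran from 0 (mouse 62) to 6036 (mouse 53). The WT contrast (2684 calls) gave 848 with no filter, 0 with the compared groups alone, 560 with the length offset, 0 with the slope covariate, and 0 to 5309 with a mouse left out. The FcD contrast (954 calls) gave 0 with no filter, with the compared groups alone, with the offset and with the slope covariate, 2236 in DESeq2, and 0 to 4612 with a mouse left out. Without anti-PD-1 DESeq2 called 1 gene. The interaction gave 1 call with the compared groups alone, 1075 in DESeq2, and 0 to 4582 with a mouse left out. The causes were not tested. Several genes changed sign. With the slope covariate Tgfb1 was at -0.079, Lrrc32 -0.29, Timp1 0.021, Col1a1 -0.32, Foxp3 -0.57, Cd8a -0.16, Adgre1 -0.001 and Rpl18 0.007. With the length offset Col1a1 was at -0.074, Ifng 0.24 and Mki67 -0.089. Within libraries 41 to 60 Tgfb1 was at -0.24, Lrrc32 -0.68, Col1a1 -0.29, Foxp3 -0.69, Cd8a -0.053, Pdcd1 -0.21, Gzmb -0.098, Adgre1 -0.093 and Mki67 -0.015, and within libraries 61 to 80 Ifng was at 0.13. With a mouse left out Tgfb1 ran from -0.11 to 0.10, Foxp3 from -0.089 to 0.33, Ifng from -0.21 to 0.089 and Mzb1 from -3.24 to 0.36. Of these, Timp1, Rpl18, Mki67 and Mzb1 had been called. Depth limits low genes most, since Foxp3 had 14 to 45 reads per tumor and Gzmk 4 to 332.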
